A study of Mus musculus with 2 samples.

Results

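The integrin chains described here are 10 genes chosen by symbol from the 23167 gene symbols of the deposited tables: the 6 alpha chains Itgae, Itgal, Itga4, Itga6, Itgav and Itga5 and the 4 beta chains Itgb7, Itgb2, Itgb3 and Itgb1. They were measured by RNA-Seq in naive CD4 cells and in naive CD8 cells, with 1 library of each and so no replicate check of any difference. Both cell types came from spleen and lymph nodes of Foxp3-GFP mice on a C57/BL6 background, in which GFP reports the regulatory T cell factor Foxp3, and both were sorted for high CD62L and low CD44, without CD25 or GFP. The sex and age of the mice, and how many were pooled for each sort, are not stated in the labels used here. The series concerns 5-hydroxymethylcytosine, a modified form of cytosine, in T cell development.

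Integrins are surface receptors made of 1 alpha and 1 beta chain, and a chain usually reaches the cell surface only with a partner. In naive T cells alpha-L with beta-2, the receptor LFA-1, holds the cell to ICAM proteins during entry into lymph nodes and contact with antigen-presenting cells. The chain alpha-4 pairs with beta-7 to bind MAdCAM-1 on gut vessels or with beta-1 to bind VCAM-1, and alpha-E, known as CD103, pairs with beta-7 and binds E-cadherin on epithelial cells. The beta-1 chain also pairs with alpha-5, which binds fibronectin, with alpha-6, which binds laminin, and with alpha-V, which pairs with beta-3 as well to bind vitronectin.

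Of the 10 chains, 2 were at least 2-fold higher in CD4 cells, Itgb3 and Itga6, and 1 was at least 2-fold higher in CD8 cells, Itgae. The measure was log2((CD4 RPKM + 1)/(CD8 RPKM + 1)), where RPKM is read count scaled to gene length and to the library total, and a value of 1 or more in either direction was counted as at least 2-fold. Of all 10228 genes at 1 RPKM or more in at least 1 library, 2.41% were at least 2-fold higher in CD4 cells and 3.07% at least 2-fold higher in CD8 cells. These were 247 and 314 genes, and with both libraries scaled to the same sum they were 600 and 324, while the 3 chains past the rule were the same. The 10 chains had a median log2 difference of 0.01 and a median absolute log2 difference of 0.44, against 0.08 and 0.25 over all compared genes. The chains and the gene lists below were chosen with earlier results of these data known. The values over all genes are therefore a background and not an independent test of them. The other 7 chains differed by less than 2-fold. All 10 chains passed the filter of 1 RPKM, Itgae and Itga5 through their CD8 values.

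The library totals behind the RPKM values were recovered from the steps of those values, as 24741945 reads for CD4 and 23853921 reads for CD8. Which reads these totals count is not stated in the sources used here. The 10 chains had between 67 reads, for Itgae in CD4 cells, and 34268 reads, for Itgb7 in CD4 cells. Intervals given below are exact 95% intervals that cover counting error only, and they compare these libraries and not the cell types at large. Such an interval for the CD4 to CD8 ratio lay wholly above or below 1 for 9 of the 10 chains and for 69.3% of all compared genes. The share over all genes may be too low, because the smallest reads that give both values were used. It may also be too high, because variation beyond counting is left out. The recovered lengths of the 10 chains lay close to annotated ones. The sorted identities were visible in the lineage markers: Cd4, Zbtb7b and Cd40lg summed to 388.6 RPKM in CD4 cells and 11.1 in CD8 cells, and Cd8a and Cd8b1 summed to 23.9 RPKM in CD4 cells and 1305.6 in CD8 cells. Genes of the T cell receptor complex and other general T cell markers summed to 1965.5 RPKM in CD4 cells and 1929.0 in CD8 cells. In bulk libraries fewer cells with a message and less message per cell cannot be told apart.

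Promoter sequence was at hand for 5 of the 10 chains, Itgb7, Itga4, Itgb1, Itgav and Itga5, in RefSeq's table for build GRCm38.p6; Itgb3, Itgae, Itgal, Itgb2 and Itga6 have no entry there. The 250 bases before the annotated start are shown for Itgb7 and Itgb1, the beta chains that share alpha-4 as a partner and that lay far apart in level, with each CpG, the dinucleotide at which cytosine is most often methylated in mammals, in capitals. The Itgb7 stretch is chr15:102231936-102232185 on the minus strand and the Itgb1 stretch is chr8:128685404-128685653 on the plus strand, each written 5′ to 3′.
Itgb7: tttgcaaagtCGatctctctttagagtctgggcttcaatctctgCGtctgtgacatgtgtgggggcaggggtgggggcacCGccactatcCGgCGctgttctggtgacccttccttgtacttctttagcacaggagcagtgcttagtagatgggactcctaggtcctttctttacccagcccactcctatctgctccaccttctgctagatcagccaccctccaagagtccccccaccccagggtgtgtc
Itgb1: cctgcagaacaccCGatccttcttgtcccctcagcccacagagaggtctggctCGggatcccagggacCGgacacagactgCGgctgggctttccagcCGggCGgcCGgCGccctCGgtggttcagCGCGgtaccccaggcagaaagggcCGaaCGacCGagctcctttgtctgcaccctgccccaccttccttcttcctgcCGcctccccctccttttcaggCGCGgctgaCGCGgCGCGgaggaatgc
The Itgb7 stretch held 5 CpG and the Itgb1 stretch 21. Of the 32851 promoters in the table, 55.6% had at least 5 CpG in the same 250 bases and 16.3% had at least 21, and the median was 6. The Itga4 stretch held 6 CpG, that of Itga5 11 and that of Itgav 18. The letters describe the reference genome, and the libraries measured no methylation.

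The beta-7 and beta-2 chains had the highest messages of the 10 in both libraries. Itgb7 was at 520.9 RPKM in CD4 cells and 474.5 RPKM in CD8 cells, a 1.10-fold difference (1.08 to 1.11), and stood at rank 109 by level among the compared genes in CD4 cells and rank 129 in CD8 cells. Itgb2 was at 256.5 RPKM in CD4 cells and 199.4 RPKM in CD8 cells, or 1.29-fold higher in CD4 cells (1.26 to 1.32). Both chains were close in level across the libraries, by ratios whose intervals leave out 1 but cover counting error only.

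The beta-1 and beta-3 chains were lower and went opposite ways. Itgb1 was at 13.5 RPKM in CD4 cells and 22.0 RPKM in CD8 cells, with 1398 and 2193 reads, and was 1.63-fold higher in CD8 cells (1.52 to 1.74), a log2 difference of -0.66 that stayed under the 2-fold rule. Itgb3 was at 54.0 RPKM in CD4 cells and 6.33 RPKM in CD8 cells, with 7702 and 871 reads, an 8.53-fold difference (7.95 to 9.15) and a log2 difference of 2.91. Itgb3 was the beta chain that differed most, and 14 of the 10228 compared genes had a larger log2 difference toward CD4. In CD4 the Itgb3 level was above that of Itgb1, and in CD8 cells it was below it.

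Itgb3 is best known as the beta chain of the platelet fibrinogen receptor, whose alpha chain is Itga2b, so platelet genes were read beside it. The 12 platelet and megakaryocyte markers summed to 1.42 RPKM in CD4 cells and 0.968 RPKM in CD8 cells. Gp5 was at 0.222, Tubb1 at 0.115 and Ppbp at 0.0375 RPKM in CD4 cells, all with 0 in CD8 cells, and Pf4 was at 0 in CD4 cells and 0.143 RPKM in CD8 cells. Gp9, Gp1ba, Gp1bb, Gp6, Treml1 and Clec1b were listed at 0 in both libraries, and Itga2b, the highest of the list, was at 1.04 RPKM in CD4 cells and 0.824 RPKM in CD8 cells. The Itgb3 level in CD8 cells was 11.7% of that in CD4 cells, and Cd4 and Zbtb7b in CD8 cells were at 2.92% and 2.41% of their CD4 levels. The part of platelets or of other cells in the Itgb3 levels was not tested.

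**Figure D1:**
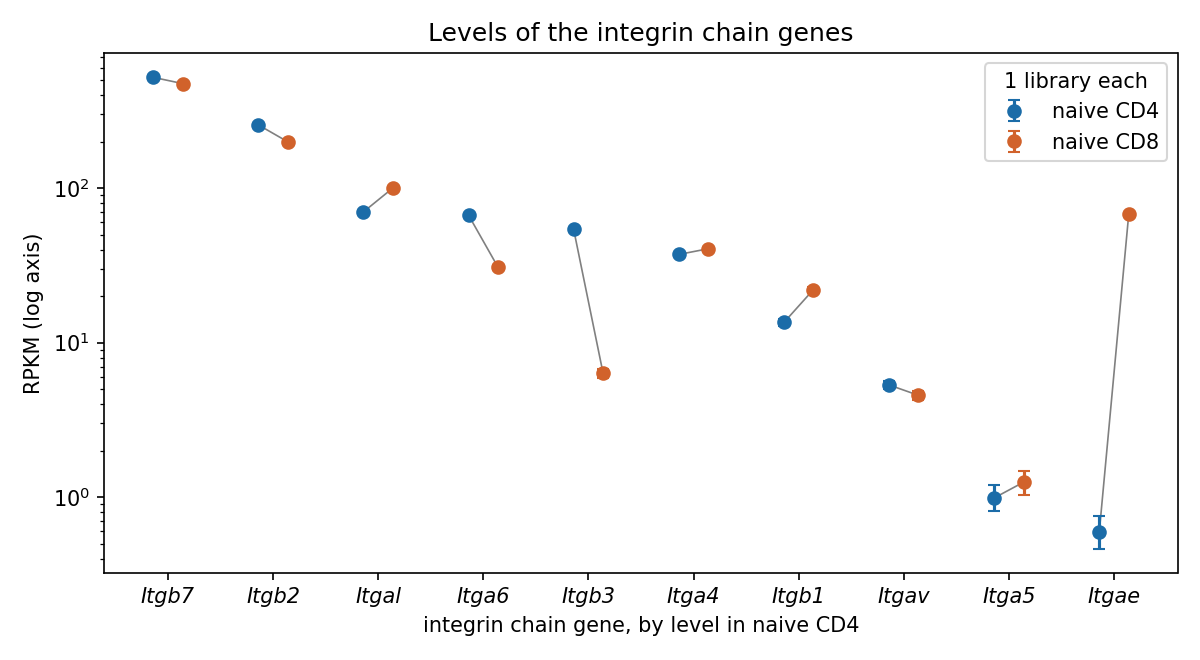
RPKM of each integrin chain gene on a log axis, in order of level in naive CD4, with the naive CD4 library left of the naive CD8 library and exact Poisson 95% intervals for counting error (1 library each; most bars are smaller than the points). Itgae and Itgb3 have the steepest lines, in opposite directions, and Itgb7 and Itgb2 stay highest in both libraries.

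Among the alpha chains Itgae, the CD103 gene, set the libraries furthest apart. It was at 0.596 RPKM in CD4 cells, with 67 reads, and 67.6 RPKM in CD8 cells, with 7325 reads, which is 113.4-fold higher in CD8 cells (89.2 to 146.5) and a log2 difference of -5.43. Of all compared genes, 5 had a larger log2 difference toward CD8. Itgae was the lowest of the 10 chains in CD4 cells and the fourth highest in CD8 cells, after Itgb7, Itgb2 and Itgal.

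The Itgae level in CD4 cells was 0.882% of that in CD8 cells, and Cd8a and Cd8b1 in CD4 cells were at 0.482% and 2.72% of their CD8 levels. Dendritic cells also carry CD103, and the 7 markers of these cells summed to 0.460 RPKM in CD4 cells and 1.34 RPKM in CD8 cells, with Siglech and Batf3 at 0 in both. The 5 NK cell markers summed to 9.82 RPKM in CD4 cells and 119.5 RPKM in CD8 cells. The 3 of them that were compared were all at least 2-fold higher in CD8 cells, against 3.07% of all compared genes. Klrd1, which T cells can also express, was at 7.85 RPKM in CD4 cells and 105.5 RPKM in CD8 cells, the transcription factor gene Eomes, likewise found in T cells, at 1.83 RPKM in CD4 cells and 12.6 RPKM in CD8 cells, and Klrb1c at 0.0308 RPKM in CD4 cells and 1.36 RPKM in CD8 cells. Klra8 was at 0 in both libraries and Ncr1 was at 0.111 RPKM in CD4 cells and 0 in CD8 cells. The part of dendritic cells or of NK marker genes in the Itgae difference was not tested. Itgae stands on 2 rows of the tables with the same value, which were counted once.

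The laminin-binding chain Itga6 was the other alpha chain past the 2-fold rule. It was at 66.8 RPKM in CD4 cells and 30.8 RPKM in CD8 cells, with 6912 and 3073 reads, or 2.17-fold higher in CD4 cells (2.08 to 2.26). Its log2 difference of 1.09 put it at rank 212 toward CD4 among the compared genes, close to the 2-fold rule, while Itgb3 stood at rank 15. In CD4 the Itga6 message was almost as high as that of Itgal, with Itgal 1.05 times as high (1.02 to 1.08).

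The remaining alpha chains differed less. Itgal, the alpha chain of LFA-1, was at 70.1 RPKM in CD4 cells and 100.1 RPKM in CD8 cells, or 1.43-fold higher in CD8 cells (1.39 to 1.47). Itga4 was at 37.2 RPKM in CD4 cells and 40.5 RPKM in CD8 cells, a ratio of 0.917 (0.891 to 0.944), and its direction turned when each library was rescaled to the same sum. The alpha-V gene Itgav was low in both, at 5.32 RPKM in CD4 cells and 4.56 RPKM in CD8 cells, or 1.17-fold higher in CD4 cells (1.06 to 1.29). Itga5, the fibronectin receptor chain, was at 0.988 RPKM in CD4 cells and 1.25 RPKM in CD8 cells, with 106 and 129 reads and a ratio of 0.792 (0.607 to 1.03), so a difference was not detectable at this depth.

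**Figure D2:**
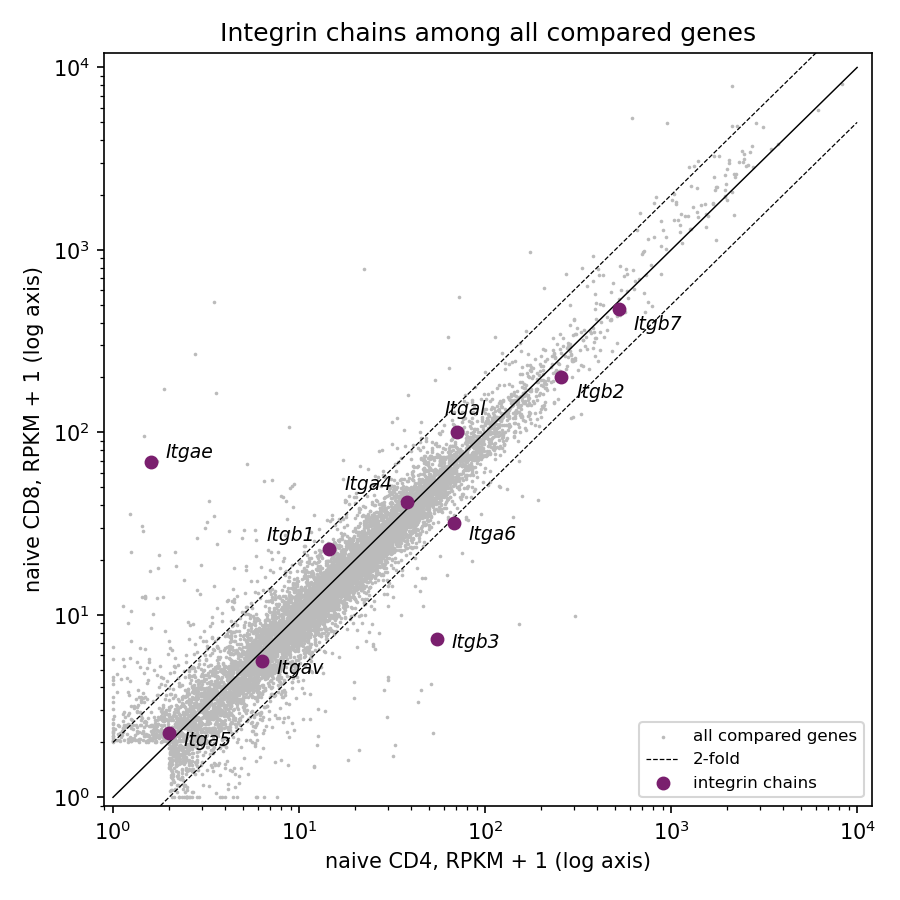
Each compared gene is a grey point at its RPKM + 1 in naive CD4 (horizontal) and naive CD8 (vertical), both on log axes, with the 10 integrin chains in purple, the solid line at equal levels and dashed lines at 2-fold. Itgb3 and Itga6 lie below the lower dashed line, Itgae lies far above the upper one, and the other 7 chains lie between them.

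Ordered by level, the 10 chains in CD4 cells ran Itgb7, Itgb2, Itgal, Itga6, Itgb3, Itga4, Itgb1, Itgav, Itga5 and Itgae. In CD8 the order was Itgb7, Itgb2, Itgal, Itgae, Itga4, Itga6, Itgb1, Itgb3, Itgav and Itga5. Each chain stood above the next beyond counting error at all 9 steps in CD4 cells and all 9 in CD8 cells. The 3 highest chains were the same in both orders, and Itgae, Itga6 and Itgb3 changed places around them. The smallest step in CD4 cells was Itgal over Itga6, and the smallest in CD8 cells was Itga4 over Itga6, at 1.32 times (1.26 to 1.37).

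Because an integrin is a pair, the level of each alpha chain was set against that of its beta partner within each library, per length. Of 8 known pairs, 3 had an alpha to beta ratio that differed at least 2-fold between the libraries. The ratio of Itgae to Itgb7 was 0.00114 in CD4 cells (0.000887 to 0.00145) and 0.143 in CD8 cells (0.139 to 0.146). That of Itgav to Itgb3 was 0.0986 in CD4 cells (0.0920 to 0.106) and 0.720 in CD8 cells (0.652 to 0.794). That of Itga6 to Itgb1 was 4.94 in CD4 cells (4.67 to 5.24) and 1.40 in CD8 cells (1.33 to 1.48). These are the pairs that contain a chain past the 2-fold rule, so the count adds no separate evidence.

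The other 5 pairs differed by less. For LFA-1, Itgal to Itgb2 was 0.273 in CD4 cells (0.266 to 0.280) and 0.502 in CD8 cells (0.490 to 0.514). For the gut-homing pair, Itga4 to Itgb7 was 0.0714 in CD4 cells (0.0698 to 0.0731) and 0.0854 in CD8 cells (0.0835 to 0.0874), so Itgb7 was above its partner by more than 10-fold in both. Itga4 to Itgb1 was 2.75 in CD4 cells (2.60 to 2.91) and 1.84 in CD8 cells (1.76 to 1.93). Message levels do not give the amount of protein or of assembled receptor.

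The beta partners were in unequal supply as messages. Itga4 and Itgae, which both take beta-7, summed to 37.8 RPKM in CD4 cells and 108.2 RPKM in CD8 cells, and Itgb7 was 13.8 times that sum in CD4 cells and 4.39 times in CD8 cells. Of the chains chosen here, 4 alpha chains take beta-1: Itga4, Itga5, Itga6 and Itgav. They summed to 110.3 RPKM in CD4 cells and 77.2 RPKM in CD8 cells. That was 8.16 times the Itgb1 level in CD4 cells and 3.51 times in CD8 cells. Other partners of beta-1, such as Itga7, were left out of this sum. Itgb7 was thus above the sum of its alpha partners and Itgb1 below the sum of these 4 in both libraries, though Itgb1 was above Itgav and Itga5 singly. Itgb7 was 38.5 times as high as Itgb1 in CD4 cells and 21.6 times in CD8 cells.

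Over all integrin chain genes, beta messages summed to 845.0 RPKM in CD4 cells and 702.2 RPKM in CD8 cells, and alpha messages to 192.3 RPKM in CD4 cells and 250.0 RPKM in CD8 cells. Of the beta sum Itgb7 made up 61.6% in CD4 cells and 67.6% in CD8 cells, and Itgb3 made up 6.39% in CD4 cells and 0.902% in CD8 cells. Of the alpha sum Itga6 made up 34.8% in CD4 cells and 12.3% in CD8 cells, and Itgae 0.310% in CD4 cells and 27.0% in CD8 cells. Itgal was the largest alpha share in both, at 36.4% in CD4 cells and 40.0% in CD8 cells.

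**Figure D3:**
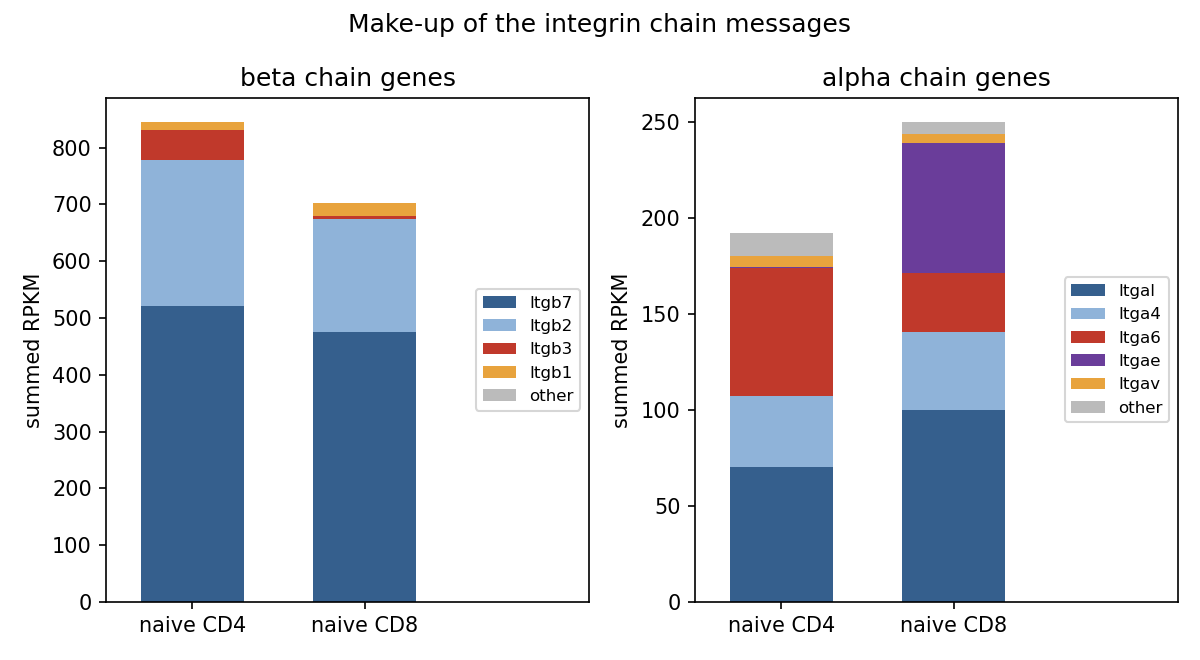
Summed RPKM of the beta chain genes (left panel) and alpha chain genes (right panel) in naive CD4 (left bar) and naive CD8 (right bar), stacked by gene, with 1 library a bar and chains outside the legend joined as other. Itgb3 is visible as a band in the CD4 beta bar, Itga6 is the wide red band of the CD4 alpha bar, and Itgae appears in the CD8 alpha bar.

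The 16 further integrin chain genes were low. Of these, 4 reached 1 RPKM in at least 1 library, and 3, Itga8, Itga11 and Itgb6, were listed at 0 in both. Itga7, another laminin-binding partner of beta-1, was at 5.37 RPKM in CD4 cells and 0.871 RPKM in CD8 cells, or 6.17-fold higher in CD4 cells without the pseudocount. By the rule with the pseudocount it was the 1 gene of this list at least 2-fold higher in CD4 cells, with 0 in CD8 cells. Of all compared genes, 2.41% passed toward CD4 and 3.07% toward CD8. Of the partners of beta-2 on myeloid cells, Itgam was at 1.62 RPKM in CD4 cells and 0.559 RPKM in CD8 cells, and Itgax, chosen after its value was seen, was at 0.263 RPKM in CD4 cells and 1.07 RPKM in CD8 cells. Without the pseudocount Itgam was 2.89-fold higher in CD4 cells (1.91 to 4.49) and Itgax 4.07-fold higher in CD8 cells (2.62 to 6.52). The 4 compared genes had a median log2 difference of 0.46, against 0.08 over all compared genes. The other myeloid markers were low too. Lyz2 was at 1.65 RPKM in CD4 cells and 2.15 in CD8 cells, and Cd14 was at 0 in both. S100a8 was at 0.520 RPKM in CD4 cells and 2.48 RPKM in CD8 cells, with 5 and 23 reads. On the myeloid marker list, 4 genes were compared, Itgam among them, and S100a8 was the 1 gene past the 2-fold rule. Of these 4 genes, 2 leaned toward CD4 and 2 toward CD8.

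Of 19 listed genes that control the switching on of integrins from inside the cell, 15 were compared and 0 passed the 2-fold rule in either direction, against 2.41% of all compared genes toward CD4 and 3.07% toward CD8, shares at which a list of this length holds few such genes. Of the 15, 13 were above 0 on the log2 scale, with a median log2 difference of 0.26. The median over all compared genes was also above 0, at 0.08, and their share above 0 was not counted. The count of 13 is therefore not read as a trait of this list. Rasgrp2, which activates the small GTPase Rap1, was at 195.4 RPKM in CD4 cells and 163.3 RPKM in CD8 cells, and Stk4, the kinase MST1 that acts downstream of Rap1, was at 187.1 RPKM in CD4 cells and 158.0 RPKM in CD8 cells. The largest differences were in Rap1gds1, a guanine nucleotide exchange protein gene with a log2 difference of 0.57, and in Sipa1l1, which encodes a GTPase-activating protein of Rap, at 33.7 RPKM in CD4 cells and 22.9 RPKM in CD8 cells.

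Proteins that bind integrin tails or restrain them, and the adhesion machinery downstream of them, also had 0 genes past the 2-fold rule in either direction, 0 of 9 and 0 of 20, beside the same 2.41% and 3.07%. The 9 compared tail binders had a median of 0.06, and the filamin gene Flna, whose protein links beta tails to actin and competes with talin, was at 405.9 RPKM in CD4 cells and 246.7 RPKM in CD8 cells. Dok2, a docking adaptor, was at 41.9 RPKM in CD4 cells and 26.6 RPKM in CD8 cells. The 20 compared adhesion and signalling genes had a median of 0.08. Dock2, an activator of Rac in lymphocytes, was at 290.7 RPKM in CD4 cells and 251.0 RPKM in CD8 cells, and Csk, which restrains Src-family kinases, was at 156.4 RPKM in CD4 cells and 119.8 RPKM in CD8 cells. Zyx, the focal adhesion protein zyxin, was at 11.9 RPKM in CD4 cells and 21.6 RPKM in CD8 cells, and the Src-family kinase gene Fgr was at 0.413 RPKM in CD4 cells and 1.78 RPKM in CD8 cells. Without the pseudocount Fgr was 4.30-fold higher in CD8 cells (2.94 to 6.45), and it passed the 2-fold rule with a pseudocount of 0.1 RPKM.

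Surface proteins that lie beside integrins went both ways. Of 12 compared, 2 were at least 2-fold higher in CD4 cells and 2 in CD8 cells, with a median of 0.05, against 2.41% and 3.07% of all compared genes. The tetraspanin gene Cd81 was at 9.56 RPKM in CD4 cells and 1.69 RPKM in CD8 cells, and Cd9, another tetraspanin, chosen after its value was seen, was at 40.9 RPKM in CD4 cells and 19.6 RPKM in CD8 cells. Cd226, the receptor DNAM-1 that associates with LFA-1, was at 30.8 RPKM in CD4 cells and 85.2 RPKM in CD8 cells, and Plaur, the urokinase receptor, also chosen after its value was seen, was at 3.38 RPKM in CD4 cells and 10.1 RPKM in CD8 cells. The highest of the list were the tetraspanins Cd53, at 308.2 RPKM in CD4 cells and 343.3 RPKM in CD8 cells, and Cd37, at 103.0 RPKM in CD4 cells and 82.8 RPKM in CD8 cells.

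Of 25 listed integrin ligand genes 4 reached 1 RPKM in at least 1 library, as did 44.1% of all symbols. Among the 4, 0 passed the 2-fold rule toward CD4 and 2 toward CD8, with a median of -0.39, beside 2.41% and 3.07% of all compared genes. Icam1, a ligand of LFA-1, was at 17.5 RPKM in CD4 cells and 44.0 RPKM in CD8 cells, while Icam2, another LFA-1 ligand, was at 55.7 RPKM in CD4 cells and 45.6 RPKM in CD8 cells. Emilin1, an extracellular matrix glycoprotein, was at 3.93 RPKM in CD4 cells and 9.32 RPKM in CD8 cells, a ratio of 0.422. The smallest reads that give these values are 7 and 16, at a length of only 72 bases. The interval from them, 0.147 to 1.08, includes 1. True reads may be a multiple of these, so that interval may be too wide and does not settle whether the difference exceeds counting error. Of ligands chosen after their values were seen, Madcam1, which binds alpha-4 beta-7, was listed at 0 in both libraries, and Cdh1, the E-cadherin gene, was at 0.0827 RPKM in CD4 cells and 0.372 RPKM in CD8 cells.

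**Figure D4:**
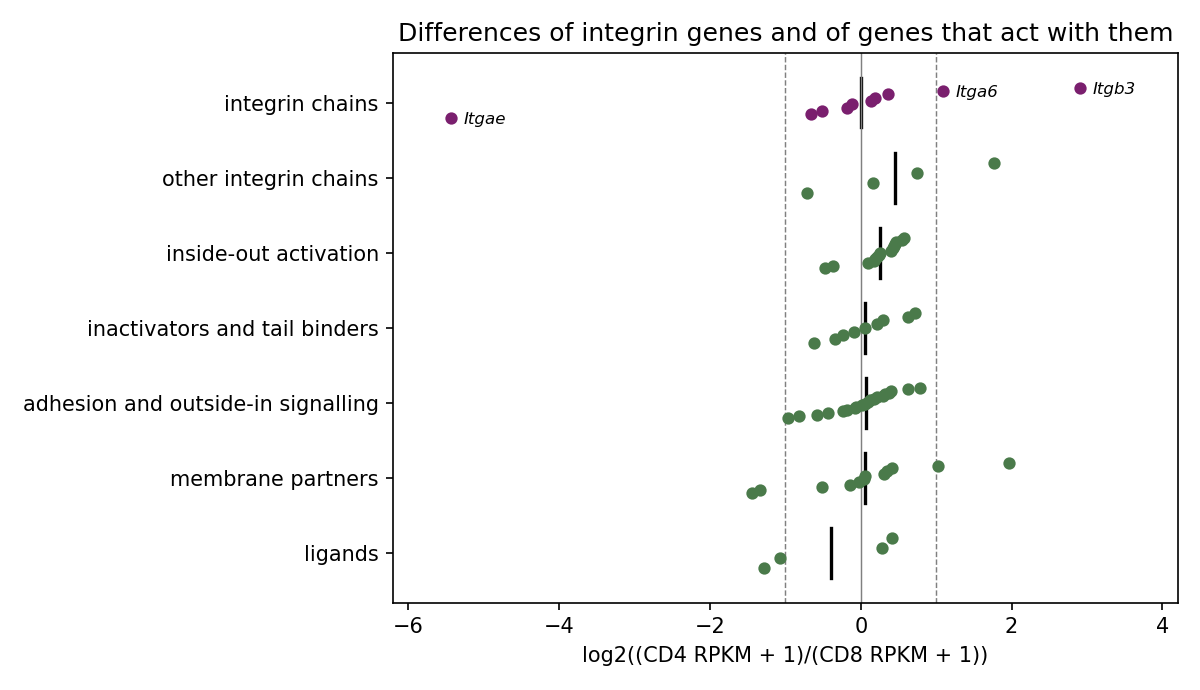
Log2 difference between naive CD4 and naive CD8, with a pseudocount of 1 RPKM, for the compared genes of each list; points are genes, spread vertically by rank, black bars are list medians and dashed lines mark 2-fold in either direction (1 library per cell type). The integrin chains span from -5.43 for Itgae to 2.91 for Itgb3, whereas every compared gene of the activation, tail binder and adhesion lists lies between the dashed lines.

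The genes beside the 3 chains past the 2-fold rule in the GENCODE M21 gene order, given by name only because that annotation is of another build, did not pass it where they were measured. Gsg2, which encodes the kinase haspin and lies inside Itgae on the opposite strand with no shared exon, was at 2.16 RPKM in CD4 cells and 1.40 RPKM in CD8 cells, against the direction of Itgae. Its neighbour 1200014J11Rik, the older symbol of Ncbp3, was at 14.2 RPKM in CD4 cells and 12.8 RPKM in CD8 cells, and P2rx5 on the other side had 0 reads in CD4 cells and 1 in CD8 cells. Beside Itgb3, Myl4 was at 1.11 RPKM in CD4 cells and 1.01 RPKM in CD8 cells, and beside Itga6, Pdk1 was at 125.1 RPKM in CD4 cells and 84.6 RPKM in CD8 cells and Dlx2 was listed at 0 in both. An exon of Itga4 overlaps 1 of Cerkl on the opposite strand, and Cerkl was at 1.71 RPKM in CD4 cells and 1.82 RPKM in CD8 cells; without a stated strand setting, reads there cannot be told apart.

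Likeness over these 2 libraries was taken as the nearest log2 difference among genes at 5 RPKM or more in the higher library. Among the 3 genes nearest to Itgae were Ly6c2, at 2.59 RPKM in CD4 cells and 163.8 in CD8 cells, and the chemokine receptor gene Cxcr6, at 0.641 in CD4 cells and 64.1 in CD8 cells. The nearest to Itgb3 were 2210010C17Rik, at 27.8 RPKM in CD4 cells and 2.88 RPKM in CD8 cells, and the microRNA loci Mir1936 and Mir687, which rested on 15 and 24 reads in CD4 cells and 0 and 1 in CD8 cells. Those nearest to Itga6 were Ptgfrn, Fanci and the microRNA locus Mir5103, the last with 11 reads in CD4 cells and 4 in CD8 cells.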

How the data were processed

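Naive CD4 and naive CD8 T cells were each represented by 1 rRNA-depleted total RNA library, prepared with a SOLiD low-input whole-transcriptome protocol per the labels' protocols. The submitters' processing notes name the build mm9 and the tools TopHat and HTSeq. The sources used here do not give their versions, the annotation or the strand setting. The values the authors deposited are RPKM. The 2597 symbols on more than 1 of the 26882 rows had identical values and were counted once.

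Read totals were recovered as those at which lengths and reads of low genes came out whole, with GENCODE M21 lengths setting the scale. Of 1062 genes above 0 in both libraries, 1062 then had whole reads within 0.600 units of the last printed digit, and 4 had with the CD8 total moved by 1000 reads. Because the totals were chosen to give whole reads, this does not check their scale, which rests on the annotated lengths. The smallest reads that give both values were used, which by itself can only widen the intervals. They also take each read as independent, and variation beyond counting, which would make them too narrow, could not be measured. The recovered reads summed to 0.898 (CD4) and 0.895 (CD8) of the totals. Recovered lengths of the 10 chains lay within 4.18% of an annotated transcript or exon-union length. Ratio intervals are exact (Clopper-Pearson, 95%), and levels have exact Poisson intervals; both cover counting error only. No test across samples was possible with 1 library per group. The difference was log2 of RPKM + 1, over genes at 1 RPKM or more in at least 1 library; the pseudocount understates differences of low genes. Folds of single genes are ratios of RPKM without it.

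The members and lists were chosen with earlier results of these data known. Named genes are the 10 chains, the 2 highest and the 2 most different compared genes of a list, the 3 genes nearest in log2 difference to a chain past 2-fold, and the genes beside or overlapping it; others are marked where they appear, or are markers. Not every gene these rules take is reported here. The calculations were tested on simulated libraries. Alternatives were pseudocounts, filters and rescalings. Python 3.11.15, scipy 1.17.1, pandas 2.3.3 and numpy 2.4.6 were used.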

Additional observations from a re-analysis of the deposited data

How the results depend on the processing

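Itgb3 and Itga6 toward CD4 and Itgae toward CD8 were the chains past 2-fold under all 7 alternatives: pseudocounts of 0.1 RPKM and of 5 RPKM, dropping the filter, raising it to 5 RPKM (which left out Itga5), subtracting the median gene's difference, scaling both libraries to a sum of 1000000 and scaling them to the housekeeping list. With the filter at 5 RPKM the median log2 difference of the chains was 0.13, against 0.01. With that subtraction it was -0.074, and with rescaling to a sum of 1000000 it was 0.22. That rescaling moved the median gene above 1 RPKM in both libraries to 0.29, against 0.08, and put 64.9% of all 2-fold calls toward CD4, against 44.0%; the subtraction put 37.1% there. The rescaling turned Itga4 to above 0, and no other chain changed sign under any alternative. The filter at 5 RPKM gave 152 genes toward CD4 and 208 toward CD8 over all genes, against 247 and 314, a pseudocount of 5 RPKM gave 73 and 125, a pseudocount of 0.1 RPKM gave 428 and 462, and rescaling to a sum of 1000000 gave 600 and 324. The Itgal share of alpha messages was 38.7% in CD4 cells and 40.9% in CD8 cells over the 10 chains alone. Of 50 single-chain values under the alternatives other than the filters, which cannot move them, 29 stayed within their counting interval and 21 moved outside it. Counts of the lists of genes that act with integrins under the same alternatives were added after seeing the data: Fgr passed toward CD8 with a pseudocount of 0.1 RPKM, with the subtraction and with rescaling to a sum of 1000000, which also took Rsu1 past toward CD4, and the inside-out and tail binder lists kept a count of 0 under all 7. A pseudocount of 5 RPKM left Icam1, Cd81 and Cd226 past it, without Emilin1, Cd9, Plaur and Itga7, the subtraction left out Cd9 and rescaling to a sum of 1000000 Emilin1, while Itgam with 0.1 RPKM or that rescaling, Itga9 with that rescaling and, toward CD8, Itgax with 0.1 RPKM came past it. The count of pairs whose ratio differed at least 2-fold was 3 with and without length, by construction. No paired analysis was possible because there was 1 library per cell type, and for the same reason no replicate could be left out. Depth limits Itga5 most, and Itgae in CD4 cells.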

Other observations

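Pecam1, which encodes the adhesion molecule CD31, was at 105.2 RPKM in CD4 cells and 52.4 RPKM in CD8 cells, a 2.01-fold difference whose log2 value of 0.99 with the pseudocount lay just under the 2-fold rule. It was on the list of endothelial and stromal markers, of which Pdpn and Col1a2 were at 0 in both libraries, Cdh5 was at 0.183 RPKM in CD4 cells and 0.0527 RPKM in CD8 cells, and Kdr was at 0.0448 RPKM in CD4 cells and 0 in CD8 cells. Cd79b, on the B cell list, was at 2.14 RPKM in CD4 cells and 28.8 RPKM in CD8 cells, while Cd79a was at 0.306 RPKM in CD4 cells and 0.317 RPKM in CD8 cells. The collagen-binding integrin gene Itga2, below the 1 RPKM filter, was at 0.454 RPKM in CD4 cells and 0.170 RPKM in CD8 cells, and Itga9, also below it, was at 0.618 RPKM in CD4 cells and 0.0772 RPKM in CD8 cells. These genes were picked after their values were seen, apart from the highest and most different of each list.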
